A study of Homo sapiens with 6 samples.

Results

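The serpins are a family of proteins named for serine protease inhibition, and their genes were read here in HaCaT, an established human keratinocyte line that became immortal in culture without a transforming virus. Members were chosen by name, as SERPIN followed by a clade letter from A to I and a number, and 33 of the 57281 genes of the deposited table are described. Every culture was exposed for 24 h to 10 ng/ml TGF-β1, a transforming growth factor. The group TGF received no silymarin, and the group TGF.SM31 also received silymarin, a milk thistle extract rich in flavonolignans, at 31.25 µg/ml. Each group holds 3 poly(A) RNA libraries that the submitters call biological replicates. Cultures that never saw TGF-β1 were not analysed here, so no response of a serpin to TGF-β1 itself can be read from the values.

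An inhibitory serpin offers a flexible loop as bait to a protease. When the protease cuts the loop, the serpin changes shape and carries the protease with it, trapped by a covalent bond. Some members have lost this activity and act as chaperones, hormone carriers or signals. In the epidermis, secreted serpins of clade E restrain plasminogen activation around moving keratinocytes, and the intracellular clade B serpins guard cells against leaked cathepsins and leukocyte proteases.

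The 5 libraries whose read numbers could be recovered held between 20240542 and 30279391 reads, of which 48213 to 114965 fell on the serpin genes described. TGF.SM31 replicate 2 was the shallowest library and stood apart: across 16828 genes its difference from the mean of the other TGF.SM31 libraries fell with transcript GC content (Spearman correlation -0.56, given as a description). The same measure ran from -0.25 to 0.43 in the other libraries. Of 8 keratinocyte markers 7 were tested, and their summed level was 314500 to 322700 normalized counts in TGF and 191800 to 208900 in TGF.SM31. The tested markers were lower in every TGF.SM31 library except TP63, which overlapped (19830 to 20660 against 17760 to 20970). The fall was large for KRT5 (73890 to 74510 against 27380 to 37290) and small for CDH1 (12420 to 12960 against 11090 to 12170). KRT17 is listed at 0 in every library, so a value of 0 in this table cannot be read as an absent transcript. Fibroblast markers stayed under 10 normalized counts except COL1A1 (1 of 8 tested, DCN and THY1 at 0, summed level 3334 to 3510 in TGF and 1716 to 2055 in TGF.SM31). Of 6 melanocyte markers 2 were tested and TYR was at 0 (219.3 to 231.6 against 296.0 to 364.3). Of these MITF was higher in every TGF.SM31 library and PMEL overlapped. Of 4 endothelial markers 2 were tested (119.6 to 136.1 against 206.8 to 259.7), of which CDH5 was higher (at most 38.0 against 149.9 to 166.2) and VWF was not (90.6 to 96.4 against 54.7 to 91.7). Of 5 leukocyte markers 1 was tested, CD14 (summed level of the list 16.2 to 23.9 against 27.4 to 39.0). CD14 itself had 10.6 to 14.5 normalized counts in TGF and 19.1 to 29.4 in TGF.SM31. The part of these marker shifts in the serpin values was not tested.

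Silymarin shifted the serpins in both directions. SERPINB5, which encodes maspin, fell to 42.2% and SERPINE2, which encodes protease nexin 1, to 38.1% of their levels with TGF-β1 alone, while SERPINB1, SERPINB6 and SERPINB13 rose by less than 1.5-fold. Members entered the test when 3 or more of the 6 libraries had 10 or more normalized counts. By this filter 13 were tested, and all but SERPINA3 reached that value in every library. Of the 13, 3 rose (SERPINB1, SERPINB6 and SERPINB13), 7 fell (SERPINE2, SERPINB5, SERPINB7, SERPINF1, SERPINF2, SERPINB2 and SERPINH1) and 3 did not pass (SERPINB8, SERPINI1 and SERPINA3). The test was limma over all 17296 tested genes, with a Benjamini-Hochberg adjusted p under 0.05 called changed. Of all tested genes 34.2% were called, 16% higher and 18.2% lower. The 13 tested members had a median log2 fold change of -0.33 and a median size of 0.44 without regard to sign, against 0.004 and 0.18 over all tested genes. The 3 libraries of each group did not overlap for 11 of the 13, against 47.1% of all tested genes. Fold changes are on the log2(normalized count + 1) scale. In bulk RNA, fewer cells that express a gene and less of its RNA per cell cannot be told apart. Without TGF.SM31 replicate 2 the counts were again 3 higher and 7 lower.

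**Figure D1:**
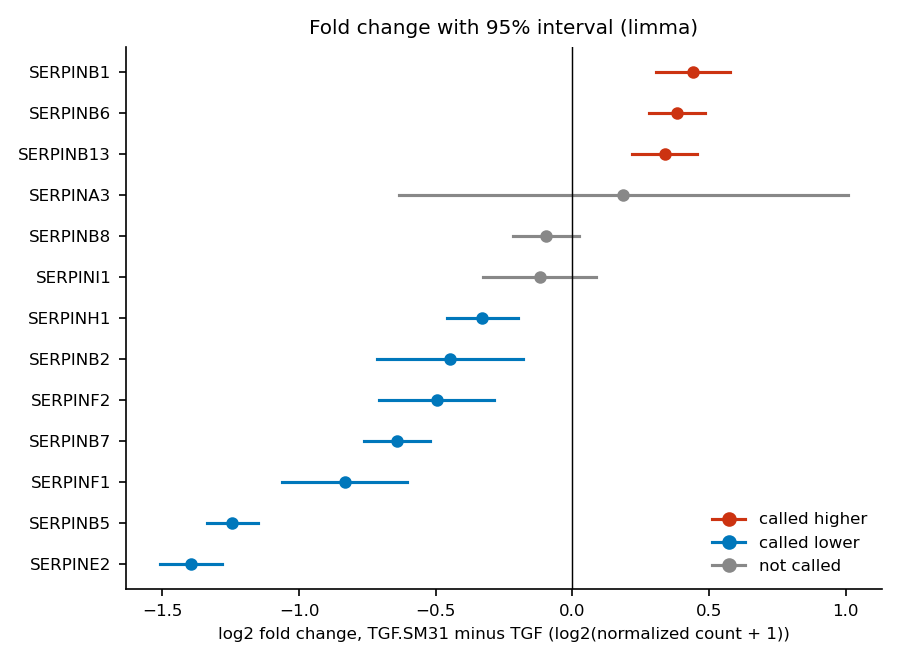
Log2 fold change of the 13 tested serpins, TGF.SM31 minus TGF, with the 95% interval from limma as a line; red, called higher; blue, called lower; grey, not called. Of the called members SERPINB1 lies farthest to the right at 0.44 and SERPINE2 farthest to the left at -1.39, and the 3 grey intervals include 0.

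Because normalized counts grow with transcript length, levels of different genes were compared per kilobase of merged exons (GENCODE 29). The shares and count ratios given further on are not scaled by length, so they serve to compare the groups and not the levels of genes. Per kb of merged exons SERPINB5 stood at 14930 normalized counts in TGF, SERPINB13 at 2922, SERPINB7 at 2742, SERPINH1 at 1208 and SERPINE2 at 905.2. In TGF.SM31 SERPINB5 stood at 6303 per kb. SERPINB13 and SERPINB7, whose levels lay side by side in TGF, did not differ beyond their spread (SD 190.2 and 131.7 per kb, n = 3). That holds for merged exons alone, since with the longest transcript as the length they stood farther apart, at 4133 and 3283 per kb. With silymarin they moved apart, to 3689 for SERPINB13 and 1760 for SERPINB7. The 8 other tested members lay between 1.89 (SERPINA3) and 289 (SERPINB1) per kb in TGF. SERPINB6 has the longest merged exons of the genes described, 13201 bases, and its level of 197.1 per kb in TGF becomes 463 when its longest transcript is used as the length.

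As a share of the summed normalized counts of the 33 genes, SERPINB5 made up 58.6% ± 0.59 (SD, n = 3) in TGF and 40.3% ± 0.45 in TGF.SM31. SERPINB13, the next tested serpin along chromosome 18, made up 13.2% ± 0.71 and 27.2% ± 0.80. The ratio of SERPINB13 to SERPINB5 counts was 0.233, 0.209 and 0.234 in the TGF libraries and 0.645, 0.679 and 0.698 in the TGF.SM31 libraries. The balance between these 2 epidermal serpins thus differed in every library of one group from every library of the other. The ratio of SERPINB7 to SERPINB5 counts was 0.129, 0.119 and 0.121 in TGF and 0.177, 0.201 and 0.183 in TGF.SM31, since SERPINB7 fell by less than SERPINB5. No test was made of these shares and ratios.

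**Figure D2:**
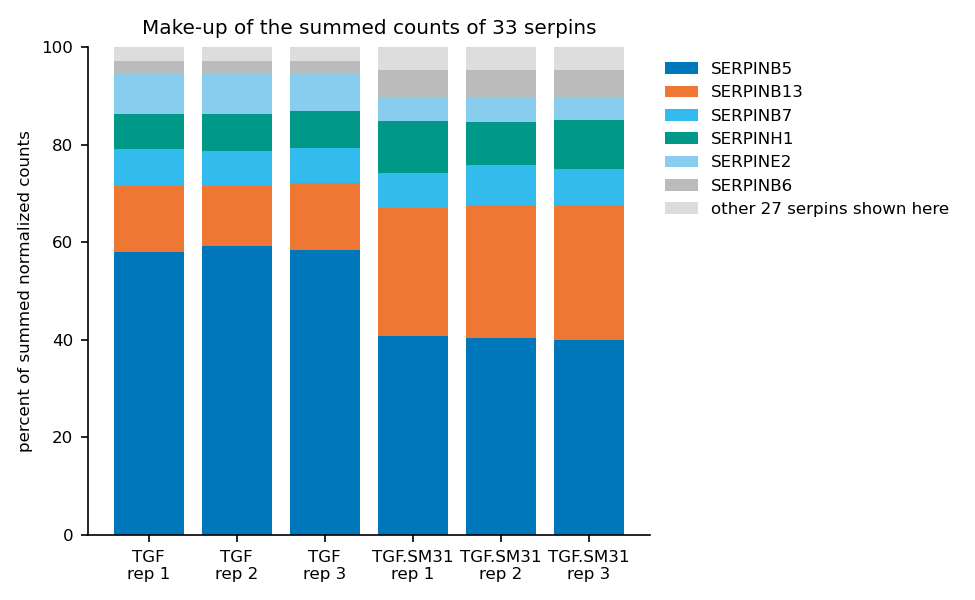
Share of each gene in the summed normalized counts of the 33 serpins described, in percent, 1 bar per library; 6 members with high counts are drawn apart and the other 27 are pooled in pale grey. SERPINB5 (dark blue) fills 58.6% of the TGF bars and 40.3% of the TGF.SM31 bars on average, and SERPINB13 (orange) 13.2% and 27.2%.

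SERPINE2 inhibits thrombin and urokinase at the cell surface. It had 8296, 8082 and 7765 normalized counts in TGF and 3065, 3239 and 2888 in TGF.SM31. The groups were far apart, with the highest TGF.SM31 library below the lowest TGF library by more than any spread within a group. The log2 fold change was -1.39 (SE 0.053, 95% interval -1.51 to -1.28, adjusted p = 6.1e-10). SERPINE3, another member of clade E, stayed under the filter with 2 libraries at 10 or more, and its values ran from 4.53 to 12.7. It lies over INTS6 on the opposite strand.

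SERPINE2 has 2 annotated starts in RefSeq (GRCh38.p14), and the 250 bases upstream of the inner one are shown because the gene had the largest fall and this window held the most motif matches of any tested member. The sequence runs 5′ to 3′ on the gene's strand and ends at the base before the start. Capitals mark matches on either strand to any of the motifs searched. Those found here were the antioxidant response element, spelled TGACNNNGC, the E-box bound by basic helix-loop-helix factors, spelled CACGTG, the box named after its own letters CCAAT, and the box read by Sp factors, known as the GC box and spelled GGGCGG.
SERPINE2, chr2:224031479-224031728, minus strand: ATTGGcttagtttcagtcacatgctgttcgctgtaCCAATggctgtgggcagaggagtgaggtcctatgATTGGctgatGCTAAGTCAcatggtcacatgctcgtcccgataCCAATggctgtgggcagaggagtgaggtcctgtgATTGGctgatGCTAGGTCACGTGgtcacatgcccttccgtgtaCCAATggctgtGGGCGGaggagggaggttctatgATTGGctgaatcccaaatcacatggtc
The window held 7 CCAAT box matches, 2 matches to the antioxidant response element, 1 E-box that overlaps the second of these, and 1 GC box. Similar stretches recur along it, so the matches are not independent of each other. It lies inside the GENCODE span of SERPINE2, outside the exons. The window upstream of the outer start held 2 GC box matches and no match to any other motif searched. Of all windows of this length 32% held the CCAAT letters, 10.9% the antioxidant response element, 6.34% the E-box and 42.6% the GC box. By gene, 3 of the 11 tested members with a window held the CCAAT letters, against 37% of all genes. The GC box was found for 5 of the 11, against 46.2%. The antioxidant response element and the E-box were found for SERPINE2 alone, 1 of the 11, against 13.2% and 7.73%. A match describes letters and is not a measured site.

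SERPINB2, SERPINF2 and SERPINI1, which also act on the plasminogen system, were scarcer than SERPINE2. SERPINB2 encodes plasminogen activator inhibitor 2, which acts on urokinase. It had 112, 104 and 102 normalized counts in TGF and 83.2, 79.0 and 71.0 in TGF.SM31. The groups did not overlap, and the log2 fold change was -0.45 (SE 0.12, adjusted p = 0.0129). It no longer passed when TGF replicate 1 was left out (limma adjusted p = 0.0596) or in DESeq2 on recovered reads (adjusted p = 0.11). SERPINB2 also overlaps SERPINB10 on the same strand, and reads of their shared span may be split or set aside. SERPINF2 encodes α2-antiplasmin, the main inhibitor of plasmin. It had 278, 261 and 279 normalized counts in TGF and 209, 171 and 202 in TGF.SM31 (log2 fold change -0.50, SE 0.097, adjusted p = 0.00142). SERPINI1 encodes neuroserpin, an inhibitor of tissue plasminogen activator best known from neurons. Its values, 192, 198 and 215 in TGF and 186, 198 and 173 in TGF.SM31, overlapped. Its log2 fold change of -0.12 did not pass (95% interval -0.33 to 0.09, adjusted p = 0.372).

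**Figure D3:**
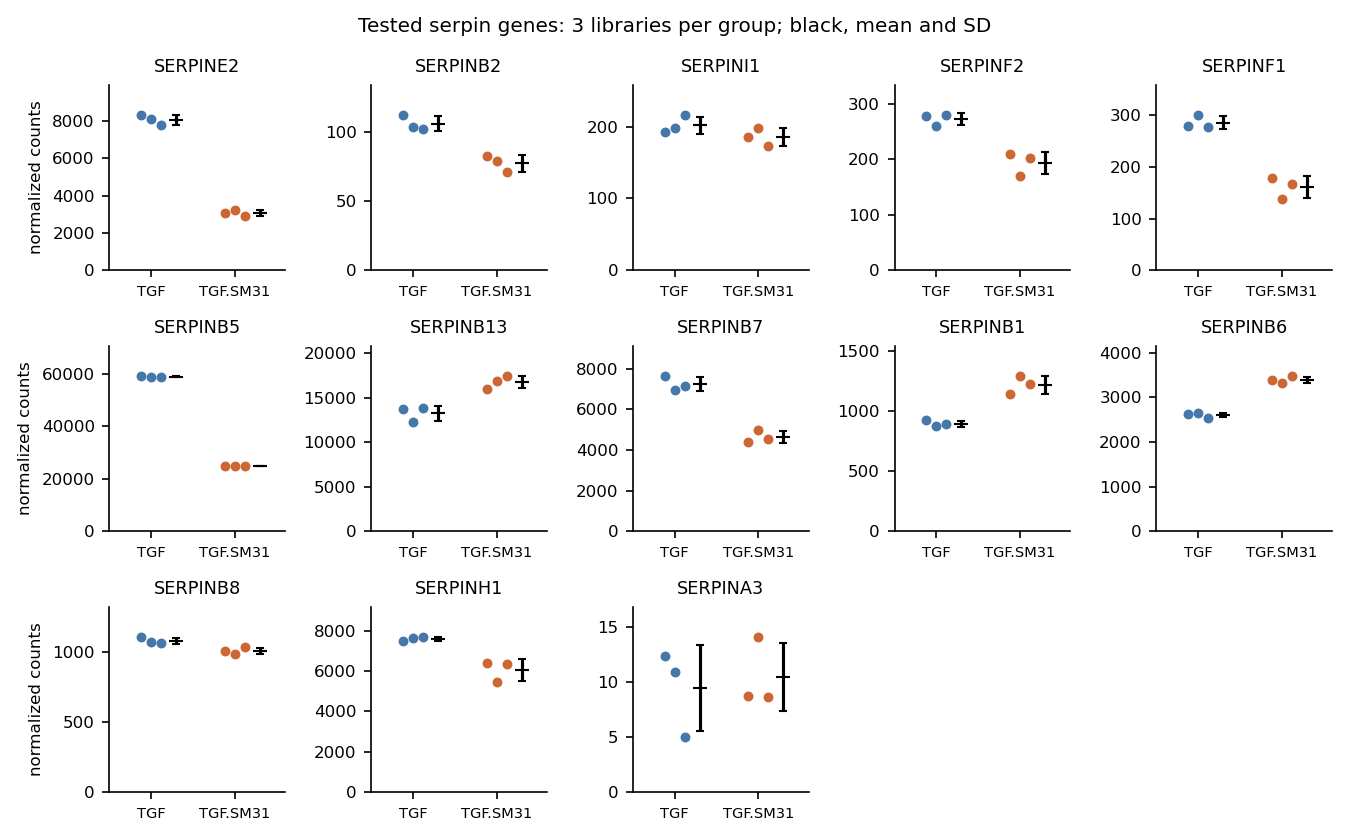
Normalized counts of the 13 tested serpins in each library (points; blue, TGF; orange, TGF.SM31), with the mean and SD of 3 libraries in black; each panel has its own axis, starting at 0. The groups are separated in 11 panels and overlap for SERPINI1 and SERPINA3.

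SERPINB5 lacks the inhibitory mechanism and is studied as an epithelial gene with tumour suppressor activity. It had 58962, 58607 and 58826 normalized counts in TGF and 24850, 24757 and 24874 in TGF.SM31. The libraries within a group were nearly alike, and the log2 fold change was -1.24 (SE 0.043, 95% interval -1.34 to -1.15, adjusted p = 3.8e-10). SERPINB5 and SERPINE2 were the only members among the 13 called with a change of at least 2-fold, against 4.42% of all tested genes. SERPINB7 encodes megsin, and loss of its function underlies a recessive palmoplantar keratosis. Its values were 7617, 6942 and 7135 normalized counts in TGF and 4396, 4965 and 4561 in TGF.SM31 (log2 fold change -0.64, SE 0.056, adjusted p = 1.4e-06). Every TGF.SM31 library was below every TGF library. SERPINB13 encodes hurpin, an inhibitor of cathepsins K and L in stratified epithelium, and it was higher with silymarin. It had 13707, 12254 and 13787 normalized counts in TGF and 16015, 16810 and 17367 in TGF.SM31 (log2 fold change 0.34, SE 0.055, adjusted p = 0.000348).

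Both tested clade B members that act on neutrophil proteases were higher with silymarin. SERPINB1 inhibits neutrophil elastase, proteinase 3 and cathepsin G. It had 921, 873 and 889 normalized counts in TGF and 1137, 1285 and 1225 in TGF.SM31, a log2 fold change of 0.44 (SE 0.062, adjusted p = 0.000103). SERPINB6 inhibits cathepsin G. Its values were 2624, 2641 and 2542 in TGF and 3389, 3326 and 3466 in TGF.SM31 (log2 fold change 0.38, SE 0.047, adjusted p = 3.3e-05). For both genes the groups did not overlap. SERPINB8, an inhibitor of the proprotein convertase furin, had 1105, 1073 and 1067 normalized counts in TGF and 1010, 990 and 1034 in TGF.SM31. The groups did not overlap, yet the log2 fold change of -0.10 did not pass (95% interval -0.22 to 0.02, adjusted p = 0.200). SERPINB8 shares its span with HMSD on the same strand, which rose by 0.45 from a level of 46.2, and with an antisense gene.

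Members outside the protease inhibitors of the epidermis made up the rest of the tested set. SERPINH1 encodes HSP47, the collagen chaperone of the endoplasmic reticulum, and does not inhibit proteases. It had 7480, 7625 and 7655 normalized counts in TGF and 6406, 5431 and 6328 in TGF.SM31 (log2 fold change -0.33, SE 0.060, adjusted p = 0.000856). SERPINF1 encodes pigment epithelium-derived factor, a secreted non-inhibitory serpin that restrains blood vessel growth. It had 280, 300 and 278 normalized counts in TGF and 178, 138 and 167 in TGF.SM31 (log2 fold change -0.83, SE 0.11, adjusted p = 4.2e-05). SERPINA3, the antichymotrypsin gene and the only tested member of clade A, stayed near the filter with 12.4, 10.9 and 5.06 in TGF and 8.75, 14.02 and 8.65 in TGF.SM31. Its log2 fold change of 0.19 (SE 0.38, adjusted p = 0.749) had an interval from -0.64 to 1.01, too wide to place it. It was just inside the filter with 3 libraries at 10 or more, and SERPINE3 with 2 and SERPINB3 with 1 were just outside.

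For SERPINH1, SERPINF1 and SERPINF2, whose longest transcripts have the highest GC content of the tested members (56.5%, 55.5% and 61.5%), TGF.SM31 replicate 2 was the lowest library. Without it their log2 fold changes were -0.25, -0.725 and -0.41, with limma adjusted p of 1.5e-06, 1.5e-06 and 0.00077. Adjusting each library for GC and length, a choice made after the data were seen, again gave 3 members higher and 7 lower.

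The other 20 members stayed under the filter and got no test. SERPINA4, SERPINA5, SERPINA7, SERPINA10, SERPINA11, SERPINA12 and SERPINI2 are listed at 0 in every library. SERPINA1, SERPINA6, SERPINA9, SERPINB9, SERPINB10, SERPINB12, SERPINC1, SERPIND1 and SERPING1 never exceeded 5.30 normalized counts. These include the plasma inhibitors of elastase (SERPINA1), of thrombin (SERPINC1 and SERPIND1) and of complement C1 (SERPING1), which the liver makes in bulk. SERPINB3 and SERPINB4, the near-identical squamous cell carcinoma antigens, reached 13.1 and 9.72 normalized counts, and reads may be shared between the copies. SERPINB11 had 2.65, 1.81 and 3.03 in TGF and 5.47, 5.10 and 9.52 in TGF.SM31. With no filter on low values 1 further member was called lower, SERPINA1, which had 0.88, 4.53 and 1.01 normalized counts in TGF and is listed at 0 in all 3 TGF.SM31 libraries.

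Many serpin genes lie in clusters, and members of 1 cluster did not share a direction on chromosome 18. Gene spans were taken from GENCODE 29 (GRCh38) by identifier, since the authors' own build is not given in the sources used here. On chromosome 18, 10 clade B genes span 543 kb, from SERPINB5 (63476761 to 63505085) to SERPINB8 (63969925 to 64019779). SERPINB5 fell by 1.24, whereas SERPINB13 (63586989 to 63604639), which begins 110.2 kb further on and is read from the same strand, rose by 0.34. SERPINB7 (63752935 to 63805376) and SERPINB2 (63871692 to 63903890) fell by 0.64 and 0.45, SERPINB8 did not pass, and the other 5 genes of the cluster were under the filter. The nearest tested protein-coding gene on the SERPINB5 side, VPS4B, was near level at -0.02 on the log2 scale (adjusted p = 0.784). On the SERPINB8 side the nearest is DSEL, which begins 4029.8 kb from the start of SERPINB5 and rose by 0.94 (adjusted p = 1.2e-05). On chromosome 6, SERPINB1 (2832332 to 2842006) and SERPINB6 (2948159 to 2972165) flank SERPINB9 and both rose. WRNIP1, the nearest tested protein-coding gene on the SERPINB1 side, rose by 0.24 (adjusted p = 0.00417), and NQO2 on the other side had 0.22 (adjusted p = 0.114). On chromosome 17, SERPINF2 (1742836 to 1755268) and SERPINF1 (1761959 to 1777574) lie head to tail and both fell, while their neighbours WDR81 and SMYD4 had log2 fold changes of -0.07 and -0.09 that did not pass (adjusted p = 0.446 and 0.394).

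**Figure D4:**
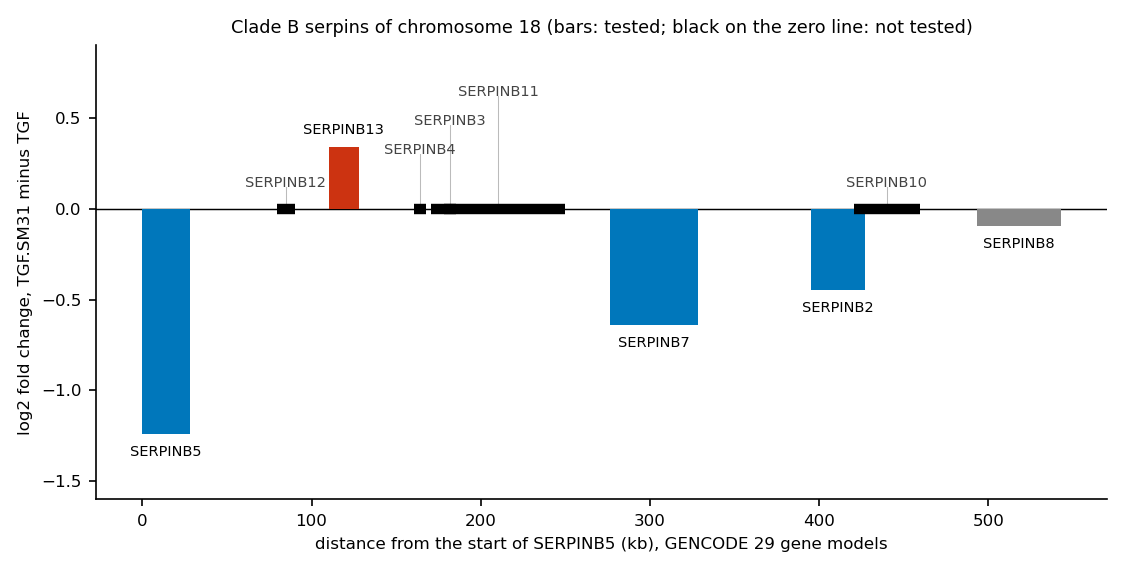
Log2 fold change, TGF.SM31 minus TGF, of the clade B serpins of chromosome 18 against the distance from the start of SERPINB5 in kb; bars span the gene (red, called higher; blue, called lower; grey, not called), and black blocks on the zero line are members under the filter. SERPINB13 is the only bar above 0, between SERPINB5 at -1.24 and SERPINB7 at -0.64.

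RefSeq windows of 250 bases upstream of a start were at hand for 11 of the 13 tested members, 18 windows in all. Each of the 5 tested chromosome 18 members held an AP-1 match (TGANTCA, which its reverse complement also spells) in at least 1 window, and none of the 6 others did. By window, 6.57% of all genes' windows held these letters, and by gene 8.06%. The match nearest a start is shown for each of the 5 genes, with the AP-1 letters in capitals, because they share it and yet differ in direction. Each line gives 30 bases on the gene's strand, with GRCh38.p14 positions, ordered along the chromosome.
SERPINB5, chr18:63476801-63476830, plus strand: taacttcagccTGAATCAtttctttcaatt
SERPINB13, chr18:63587245-63587274, plus strand: tcgagagatgcTGACTCAgttggtctgggg
SERPINB7, chr18:63775368-63775397, plus strand: gtgctgtgctcTGAGTCAtagggaagccat
SERPINB2, chr18:63887592-63887621, plus strand: gagtaaaatgtTGAATCActcaaaggacac
SERPINB8, chr18:63970042-63970071, plus strand: tcgaacggttcTGAGTCAtctgccggaagc
TGACTCA and TGAGTCA spell the same double-stranded site, so SERPINB13, which rose, SERPINB7, which fell, and SERPINB8, which did not pass, share it here. SERPINB5 and SERPINB2, both lower with silymarin, have TGAATCA, and so does a further match of SERPINB8. Further matches of SERPINB7 have TGATTCA, which spells the same double-stranded site as TGAATCA. SERPINB13 had no match of that spelling. Whether spelling goes with direction was not tested. The SERPINB7 and SERPINB8 matches lie nearest to the start, beginning 39 and 28 bases before it, and the SERPINB5 match begins 146 bases before it. RefSeq and GENCODE place some starts differently, and all 5 stretches lie inside the GENCODE span of their gene, that of SERPINB5 inside an exon. A SMAD-like match (CAGACA, either strand) was found for 5 of the 11 genes, against 16.3% of all genes, and a TATA box (TATAAA, either strand) for 3 of the 11, against 13%. None held the letters of the CARE element (TGATGNAA, either strand), against 3.89% of all genes.

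The proteases that serpins act on, with their receptors and cofactors, were followed in a list of 60 genes. Of these 40 were tested, 11 rose, 18 fell and 11 did not pass, against 16% called higher and 18.2% called lower among all tested genes. The list's median log2 fold change was -0.13. PLAU, the urokinase that SERPINE2 and SERPINB2 inhibit, had 4192, 4346 and 4261 normalized counts in TGF and 3034, 2930 and 3162 in TGF.SM31. It fell by 0.49 on the log2 scale (SE 0.049, limma adjusted p = 4.6e-06). The ratio of SERPINE2 to PLAU counts was 1.98, 1.86 and 1.82 in the TGF libraries and 1.01, 1.11 and 0.913 in the TGF.SM31 libraries. SERPINE2 RNA was thus lower relative to PLAU RNA in every TGF.SM31 library. These values say nothing of protein or inhibitory activity. The urokinase receptor gene PLAUR had a log2 fold change of 0.06 and PLAT, tissue plasminogen activator, of 0.08. Neither passed (adjusted p = 0.594 and 0.746). F2R, the thrombin receptor PAR1, fell by 1.12, and PROC, the anticoagulant protein C, fell by 0.68. Of the 7 tested coagulation genes of the list, 2 rose, 3 fell and 2 did not pass. Thrombin itself (F2) and all 7 leukocyte and mast cell proteases of the list were under the filter.

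**Figure D5:**
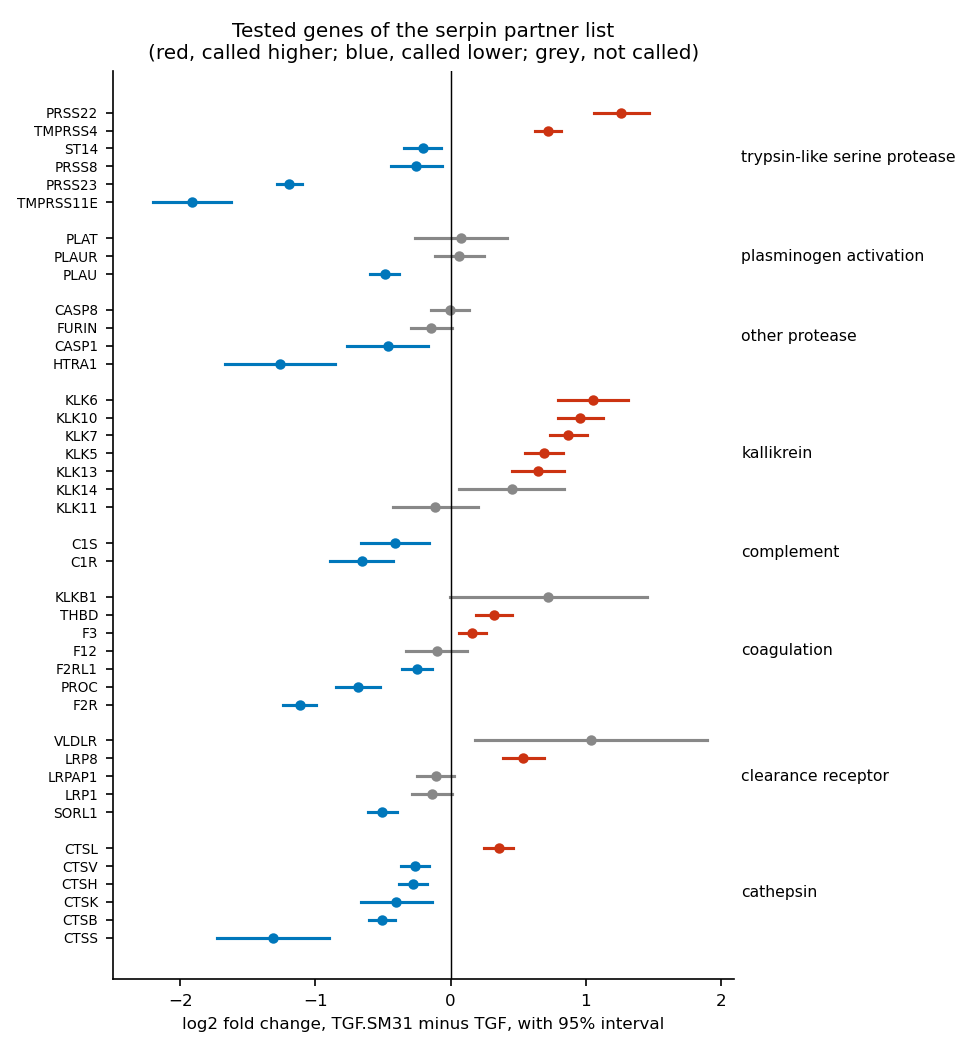
Log2 fold change with 95% interval (limma), TGF.SM31 minus TGF, of the 40 tested genes of the partner list, grouped by kind; red, called higher; blue, called lower; grey, not called. Kallikreins lie right of 0 except KLK11, and cathepsins lie left of 0 except CTSL.

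Of 7 tested kallikreins, the trypsin- and chymotrypsin-like proteases of the skin surface, 5 rose: KLK6 by 1.055, KLK10 by 0.96, KLK7 by 0.87, KLK5 by 0.69 and KLK13 by 0.65. Of 6 tested cathepsins 5 fell, among them CTSS with a log2 fold change of -1.31 and CTSB with -0.51. CTSL, a target of SERPINB13, rose by 0.355, and CTSK, another target, fell by 0.40 (adjusted p = 0.0213). Among trypsin-like proteases PRSS22 rose by 1.26 and TMPRSS4 by 0.72, while TMPRSS11E and PRSS23 had log2 fold changes of -1.91 and -1.19. HTRA1, a secreted serine protease, fell by 1.26, and the complement protease gene C1R fell by 0.66. For HTRA1 the log2 fold change was -0.995 without TGF.SM31 replicate 2 and -1.446 without TGF.SM31 replicate 3. LRP1, the receptor that clears serpin-protease complexes, had 22334 ± 38.2 normalized counts in TGF and 20343 ± 2324 in TGF.SM31 (log2 fold change -0.14, adjusted p = 0.131). Its 3 TGF.SM31 libraries had 21181, 17716 and 22132. Without replicate 2, the low one, the log2 fold change was -0.045 (adjusted p = 0.266), and without replicate 3 it was -0.205 and passed (adjusted p = 0.029). LRP8, a related receptor, rose by 0.54.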

How the data were processed

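RNA from 6 HaCaT libraries was analysed. Extraction used a mirVana kit and library preparation a stranded Illumina mRNA kit, per the labels' protocols. Tools named in the submitters' processing notes are TopHat2 2.1.1, Subread 1.5.2 with featureCounts, DESeq2, cutadapt 1.15 and bcl2fastq 2.18.12. For build, annotation and strand setting, the sources used here give nothing. The values the authors deposited are a signal in normalized read counts per gene: each column holds whole multiples of 1 step (100% of values, tolerance 1e-06 reads), from 0.865 to 1.27. The step of TGF replicate 3, 1.01, is so near 1 that its reads were not used in count models, which had the other 5 libraries. Size factors hide any change in total RNA.

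In R 4.3.3, limma 3.58.1 (trended prior, group as the only term) was fitted to log2(value + 1) for the 17296 genes that reached 10 normalized counts in 3 or more libraries. P-values rest on the spread between the 3 libraries within each group, drawn toward a trend that limma fits over all tested genes. The fit was tested on simulated data. Alternatives were other scalings, filters, pseudocounts and thresholds, a replicate block, leaving out each library, edgeR 4.0.16 (4647 genes called) and DESeq2 1.42.0 on recovered reads, and a GC and length correction. Of the 34 genes that the name rule finds, 1 is not reported here, and it is left out of every count, median and share of members. The other members were all named; of the partner list, up to 8 called genes in each direction with the largest changes, and PLAU, PLAT, PLAUR and LRP1. CTSK, CTSL and other genes named for their role or place were chosen after their values were seen. CTSL, CTSV and VTN were matched by identifier. The members and lists were chosen with earlier results of these data known.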

Additional observations from a re-analysis of the deposited data

How the results depend on the processing

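The number of serpins called higher was 3 in the main analysis and under all 18 alternatives, and the number called lower ran from 6 to 8 around the main 7. The 8 came with no filter on low values, and the 6 with a filter of 5 CPM, an adjusted p under 0.01, DESeq2 on recovered reads, or without TGF replicate 1. Genes called in all numbered 5912, against 3861 at an adjusted p under 0.01, 3709 with DESeq2, 4278 to 7183 when 1 library was left out (the most without TGF.SM31 replicate 2) and 7329 with the GC and length correction. Each of SERPINE2, SERPINB1, SERPINB5, SERPINB6, SERPINB7, SERPINB13, SERPINF1, SERPINF2 and SERPINH1 kept its direction and its call under the 18 alternatives. SERPINA3, which did not pass, had -0.19 with edgeR and -0.17 with DESeq2, ran from -0.167 (without TGF replicate 3) to 0.294 when 1 library was left out, and could not be tested under 4 alternatives. PLAT, also not called, ran from -0.022 (without TGF.SM31 replicate 1) to 0.179. With the replicate block 3 serpins were higher and 7 lower, 11 partner genes were higher and 18 lower as in the main analysis, and 5678 genes were called in all. The labels share replicate numbers, but deviations of same-numbered libraries had correlations of -0.04, 0.04 and 0.02, so the numbers were not taken as pairs. Over all alternatives 10 to 13 partner genes were higher and 13 to 20 lower, with 13 lower at an adjusted p under 0.01, without TGF replicate 3, with edgeR and with DESeq2. The values of the 20 untested members never exceeded 13.1 normalized counts in a library, and whether depth limited them was not tested.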

Other observations

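The spread of SERPINB5 between libraries was below its counting error. Its SD was 179 normalized counts in TGF, where counting error at a mean of 58798 comes to 234, and 61.95 in TGF.SM31, where it comes to 164. For SERPINB13 the SD was 863 in TGF and 680 in TGF.SM31, against counting errors of 111 and 134. With 3 libraries per group an SD is itself imprecise.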
